A study of Mus musculus with 8 samples.

Results

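The miR-23/27/24 group is the product of a pair of paralogous miRNA clusters, and 5 of the 1881 mouse miRNAs on the array belong to it: mmu-miR-23a-3p, mmu-miR-23b-3p, mmu-miR-27a-3p, mmu-miR-27b-3p and mmu-miR-24-3p. They were taken by name, whatever their signal. The arrays measured serum RNA of irradiated mice (7 Gy, n = 4) and of non-irradiated controls (0 Gy, n = 4). All mice were males of the C57BL/6NJcl strain aged 8 weeks. The 7 Gy group received X-rays at 1.0 Gy/min, and its sera were drawn 72 h later. The 0 Gy group received no radiation. Each array carried 30 ng of serum RNA labelled with the dye Cy3. The labels number the samples but name no separate animals, so that p-values measure the spread between these samples.

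A miRNA is a short RNA that guides a silencing complex to messenger RNAs, which it recognises mainly through its seed (bases 2 to 8). The miR-23, miR-27 and miR-24 precursors lie side by side in each cluster and can be cut from 1 primary transcript. Their products are known from endothelial cells and blood cells, where roles in vessel growth and in blood cell development have been described. In serum studies, miR-23a-3p is often set against miR-451a, an abundant red cell miRNA, as an index of red cell lysis.

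The mir-23a/27a/24-2 cluster lies at chr8:84208518-84208921 in GRCm38.p6, within 404 bases, and the mir-23b/27b/24-1 cluster at chr13:63300484-63301275, within 792 bases that overlap the gene Aopep. The hairpin genes Mir23a and Mir27a are 79 bases apart, and Mir27a and Mir24-2 are 56 bases apart. In the other cluster, Mir23b and Mir27b are 154 bases apart, and Mir27b and Mir24-1 are 423 bases apart. The mature sequences below are from RefSeq (GRCm38.p6), which held 4 of the 5 miRNAs. They are shown 5′ to 3′ with the seed in capitals, since the seeds sort the group into families, and since the 5p products differ between the mir-24 loci while miR-24-3p does not.
miR-23a-3p: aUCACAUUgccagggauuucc
miR-27a-3p: uUCACAGUggcuaaguuccgc
miR-27b-3p: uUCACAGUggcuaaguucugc
miR-24-3p: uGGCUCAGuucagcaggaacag
miR-24-2-5p: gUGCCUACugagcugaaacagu
miR-24-1-5p: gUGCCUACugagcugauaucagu
miR-128-3p: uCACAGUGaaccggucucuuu
The miR-27 paralogs have the same seed and differ by 1 substitution in 21 bases, C19U, written as the base of miR-27a-3p, the position from the 5′ end and the base of miR-27b-3p. Of the 1679 mature mouse miRNA names in the RefSeq table, no other one shares their seed, and 4 (miR-5124b, miR-6369, miR-6410 and miR-6413) share that of miR-24-3p. None of these 4 was among the miRNAs tested. Bases 2 to 8 of miR-128-3p are bases 3 to 9 of miR-27a-3p, a seed shifted by 1 base. The miR-24-3p sequence is the same at both loci, so that its signal is the sum over Mir24-1 and Mir24-2.

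The arrays were not alike in quality, and the difference ran with the groups. The labelling spike-ins, RNAs added to check the dye reaction, read 2.31, 3.35, 1.95 and 1.97 (log10 signal) on 7 Gy replicates 1 to 4, against 3.68, 3.45, 2.73 and 3.37 on 0 Gy replicates 1 to 4. The 3 arrays below the scanner software's accepted range were all from 7 Gy sera (replicates 1, 3 and 4). The mean difference was -0.91 (two-sided exact permutation p = 0.0571, smallest possible 0.0286). The software called 378 to 687 miRNAs detected on the 7 Gy arrays and 531 to 603 on the 0 Gy arrays. It also used a default spot size on 7 Gy replicates 1 and 3 (0.6 of the nominal size, against 0.79 to 0.80 measured on the other 6 arrays), a factor common to all miRNAs of an array that the scaling removes. All arrays were on 1 slide. Its columns 3 and 4 held the 7 Gy arrays and its columns 1 and 2 the 0 Gy arrays, and an effect of column cannot be told apart from one of dose.

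In the main comparison, no miRNA of the group was called different between 7 Gy and 0 Gy sera. Of the 208 miRNAs tested, limma called 4 higher at 7 Gy (1.92%) and 4 lower (1.92%) at an adjusted p under 0.05, and 0 of the 5 were among them. Taken for their call alone, the 4 higher were miR-709, miR-5128, miR-3470a and miR-3473e, and the 4 lower were let-7b-5p, miR-25-3p, miR-130b-3p and miR-140-3p. Before adjustment, p lay under 0.05 for 46 miRNAs in the higher and 16 in the lower direction, and again none was from the group, nor did the methods' t-test call any of the 5. The samples of the 2 doses overlapped for all 5, while 25 of the 208 (12%) did not overlap. The median log2 fold change of the group was -0.09, with 4 of 5 below 0, and over all tested miRNAs it was 0.17, with 84 (40.4%) below 0. However, miR-23b-3p and miR-27b-3p were at the floor on all 4 arrays at 7 Gy, so that their fold changes could only be negative. The group median is the value of miR-27b-3p, and neither the median nor the count is read as a result about the group. In serum, fewer cells releasing a miRNA and less of it released by each cell cannot be told apart.

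The values below are scaled signals: the summed probe signal of a miRNA times a factor that makes the 90th percentile of all arrays equal. They are set to 100, the floor, where they are lower, and fold changes are of the log2 of these values, so that they understate differences at low signal. Signals of different miRNAs depend on their probes and were not ranked against each other.

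The mmu-miR-23a-3p product, taken as the stable partner in serum indices, was called detected on all 8 arrays. Its scaled signal was 1070.5, 1278, 248 and 280.1 in 7 Gy replicates 1 to 4, and 1987, 641, 316 and 558 in 0 Gy replicates 1 to 4. The lowest samples were 7 Gy replicates 3 and 4, and the highest was 0 Gy replicate 1. On the log2 scale it averaged 9.12 ± 1.25 at 7 Gy and 9.43 ± 1.11 at 0 Gy (SD, n = 4 each). The log2 fold change was -0.31 (SE 0.77, 95% interval -2.12 to 1.501, limma adjusted p = 0.764), which is 0.81-fold with an interval of 0.23-fold to 2.83-fold. The exact permutation p for it alone was 0.714.

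The paralog mmu-miR-23b-3p read close to the limit of the scale. Its scaled signal before the floor was 36.9, 77.0 and 10.9 in 7 Gy replicates 1, 2 and 4, and it was not called detected in 7 Gy replicate 3. In 0 Gy replicates 1 to 4 it was 128, 41.1, 19.0 and 42.9. Only 0 Gy replicate 1 exceeded the floor, and the miRNA entered the test through that array alone. Its log2 fold change of -0.09 (SE 0.11, limma adjusted p = 0.616) therefore compares 4 arrays at the floor at 7 Gy with 3 at the floor at 0 Gy, and its narrow interval (-0.35 to 0.17) leaves out all variation below 100.

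The mmu-miR-27a-3p product, a regulator of lipid and blood vessel genes, was detected on 3 of 4 arrays at 7 Gy and on 4 of 4 at 0 Gy. Before the floor, its scaled signal was 52.9, 401 and 17.5 in 7 Gy replicates 1, 2 and 4, with replicate 3 not called detected. In 0 Gy replicates 1 to 4 it was 695, 302, 41.6 and 177. The irradiated sample with in-range labelling, replicate 2, lay among the controls, and the other 3 lay at the floor together with 0 Gy replicate 3. The log2 fold change was -0.80 (SE 0.72, 95% interval -2.49 to 0.88, limma adjusted p = 0.478), or 0.57-fold, and the exact permutation p was 0.371.

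The paralog mmu-miR-27b-3p was detected on 2 of 4 arrays at 7 Gy and on 4 of 4 at 0 Gy, the fewest in the group. Before the floor, it read 98.3 in 7 Gy replicate 2 and 12.8 in 7 Gy replicate 4. It read 128, 62.7, 27.1 and 36.1 in 0 Gy replicates 1 to 4. As with miR-23b-3p, only 0 Gy replicate 1 exceeded the floor, and the log2 fold change was -0.09 (SE 0.11, limma adjusted p = 0.616). The 4 values called not detected in the group, of miR-23b-3p, miR-27a-3p and miR-27b-3p, were all on 7 Gy replicates 1 and 3, where 379 and 378 miRNAs were detected in all.

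The mmu-miR-24-3p product, which both clusters make, was the only one of the group with a mean above that of the controls, although scaling by the 75th percentile over all miRNAs or by the labelling spike-ins also put miR-23a-3p and miR-23b-3p above them, and the spike-ins the miR-27 paralogs too. Its scaled signal was 1232, 1006, 439 and 437 in 7 Gy replicates 1 to 4, and 1413, 120, 261 and 80.4 in 0 Gy replicates 1 to 4. All 4 irradiated samples lay above 3 of the 4 controls, and 0 Gy replicate 1 lay above them all. It averaged 9.45 ± 0.79 at 7 Gy and 8.01 ± 1.74 at 0 Gy on the log2 scale (SD, n = 4 each). The log2 fold change was 1.44 (SE 0.88, 95% interval -0.63 to 3.51, limma adjusted p = 0.311), or 2.71-fold with an interval of 0.65-fold to 11.4-fold, and ranked 18 of 208 from the highest. The exact permutation p was 0.171. Leaving out 1 sample, the fold change ranged from 0.98 without 0 Gy replicate 4 (limma adjusted p = 0.514) to 2.26 without 0 Gy replicate 1 (adjusted p = 0.114). It was 0.22 with no scaling (adjusted p = 0.943), where the mean raw signal was 903 at 7 Gy and 1055 at 0 Gy. These unscaled values still hold the default spot size of 7 Gy replicates 1 and 3. With the 75th and the 90th percentile of miRNAs detected on all arrays the fold change was 0.77 and 0.91. For each row of the slide on its own (replicates 1 and 2, and replicates 3 and 4), it was 1.44 in both. With array weights, which let limma trust the arrays unequally, it was 2.43 and passed the threshold (adjusted p = 0.0258), as did 61 miRNAs in the higher direction. Its adjusted p ranged from 0.0258 to 0.943 over the alternatives.

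**Figure D1:**
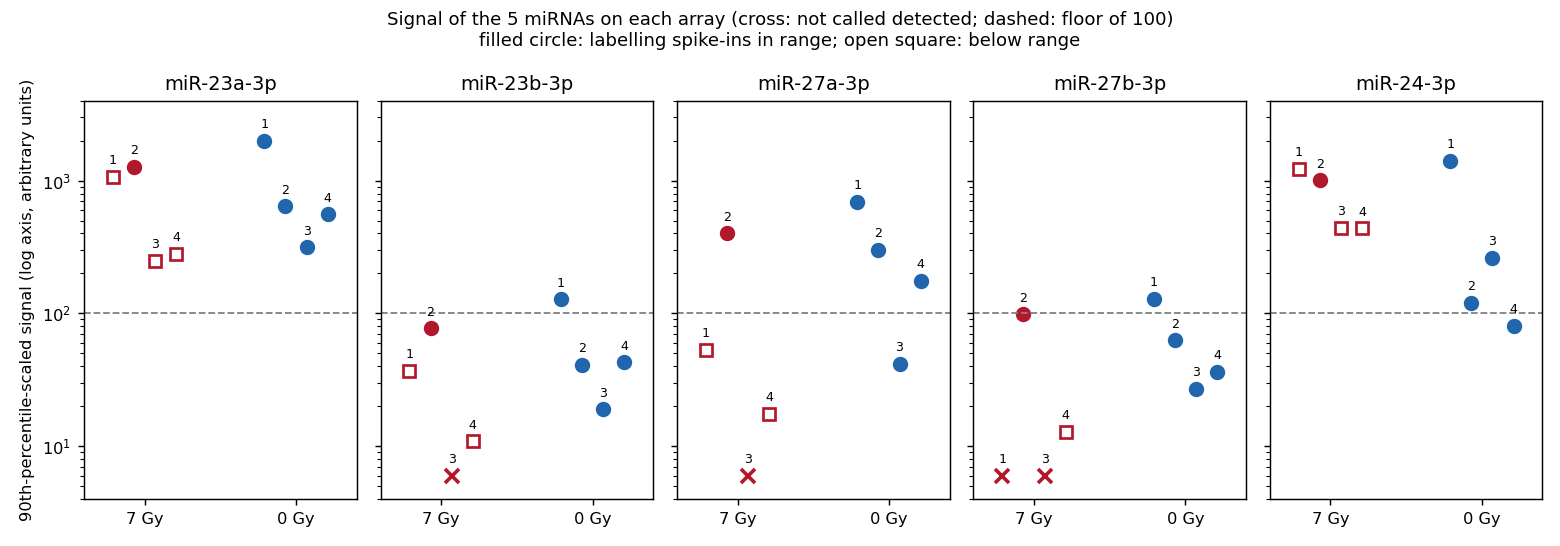
Scaled signal of the 5 miRNAs (log axis, arbitrary units) on each array, with 7 Gy on the left and 0 Gy on the right of each panel and replicate numbers above the points. Filled circles are arrays with labelling spike-ins in range, open squares arrays below range, crosses miRNAs not called detected (drawn at the foot), and the dashed line the floor of 100. The doses overlap in every panel, and for miR-23b-3p and miR-27b-3p only 0 Gy replicate 1 lies above the floor.

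**Figure D2:**
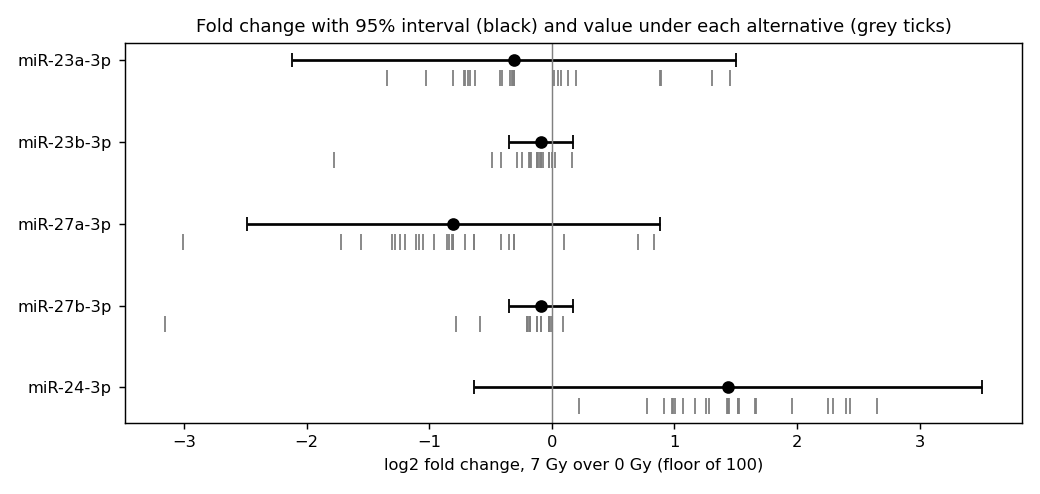
Log2 fold change of each miRNA, 7 Gy over 0 Gy, with its 95% interval from limma (black) and its value under each processing alternative (grey ticks). All 5 intervals include 0, and the values of miR-24-3p stay between 0.22 and 2.65.

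Only 7 Gy replicate 2 among the irradiated samples had labelling in range. Set alone against the 4 controls, with no test, it gave log2 differences of 0.89 for miR-23a-3p, 0.70 for miR-27a-3p and 1.96 for miR-24-3p. For miR-23a-3p and miR-27a-3p the mean over all 4 irradiated samples was below the control mean, while this sample was above it and below 0 Gy replicate 1. The part of the labelling in these values was not tested.

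Each miRNA was read by 2 probes of 15 spots each, which gives a check of the measurement itself. In 72 of the 80 probe and array combinations, all spots were well above background, and there the coefficient of variation over the spots had a median of 4.37% (range 1.14% to 18.0%). The spread between samples was thus far wider than that between spots. For miR-24-3p the log2 difference was 1.58 with one probe and 1.448 with the other. The other 8 combinations, both probes of miR-23b-3p and miR-27a-3p on 7 Gy replicate 3 and of miR-27b-3p on 7 Gy replicates 1 and 3, had no spot well above background, so that no difference between doses was read from the probes of these 3 miRNAs. The probes of miR-23a-3p differed, with -0.02 for the first and -0.51 for the second. The log2 ratio of the second to the first was 0.30, 1.32, 0.08 and 0.12 in 7 Gy replicates 1 to 4, and 1.41, 1.21, 0.51 and 0.65 in 0 Gy replicates 1 to 4, so that it was smallest on the 3 arrays with labelling below range. Probes of 1 miRNA are not replicates, and no test was made on them.

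**Figure D3:**
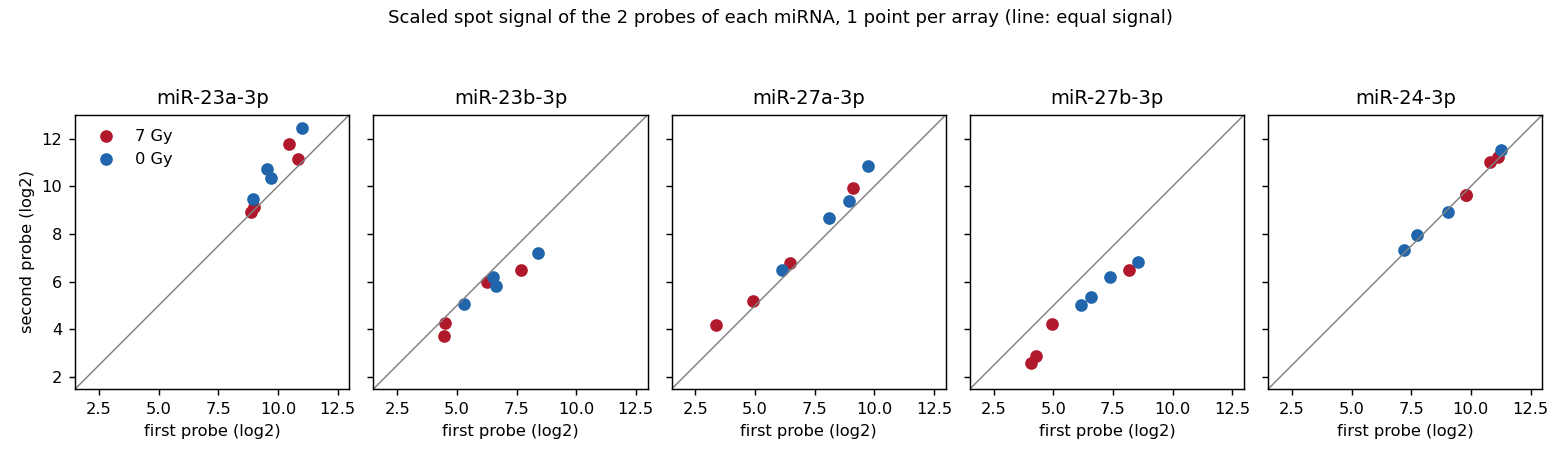
Scaled spot signal of the second probe against the first (log2, 1 point per array, red 7 Gy, blue 0 Gy), with a line of equal signal. The points of miR-24-3p follow the line, and those of miR-23a-3p lie above it by 0.08 to 1.41. The points of miR-23b-3p and miR-27a-3p in 7 Gy replicate 3 and of miR-27b-3p in 7 Gy replicates 1 and 3 were not above background.

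Differences between 2 miRNAs on the same array do not depend on the scaling factor except at the floor, and 5 such differences were compared between doses, with p-values adjusted over the 5. The log2 signal of miR-24-3p, summed over both loci, minus that of miR-23a-3p was 0.20, -0.35, 0.82 and 0.64 in 7 Gy replicates 1 to 4. It was -0.49, -2.42, -0.27 and -2.48 in 0 Gy replicates 1 to 4. The last is an upper bound (-2.80 with no floor), since miR-24-3p was at the floor there. The doses overlapped by 1 pair of samples, 7 Gy replicate 2 and 0 Gy replicate 3. The difference averaged 0.33 ± 0.52 at 7 Gy and -1.42 ± 1.20 at 0 Gy (SD, n = 4 each), a gap of 1.75 (exact permutation p = 0.0571, adjusted p = 0.143). Leaving out 1 sample gave gaps of 1.39 to 2.13. The exact permutation p was 0.0286 without 0 Gy replicate 3, the control that overlaps, 0.0571 without 0 Gy replicate 1, 0.0857 without 7 Gy replicate 2 or 0 Gy replicate 2 or 4, and 0.143 without 7 Gy replicate 1, 3 or 4. The gap was 1.38 for replicates 1 and 2 on one row of the slide and 2.11 for replicates 3 and 4 on the other. With 7 Gy replicate 2 as the only irradiated sample it was 1.07.

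The log2 difference miR-24-3p minus miR-27a-3p was 3.62, 1.33, 2.13 and 2.13 in 7 Gy replicates 1 to 4. In 0 Gy replicates 1 to 4 it was 1.02, -1.33, 1.39 and -0.82. With the floor, the lowest irradiated sample, replicate 2, lay just under 0 Gy replicate 3. The means were 2.30 ± 0.96 at 7 Gy and 0.06 ± 1.34 at 0 Gy (SD, n = 4 each), a gap of 2.24 (exact permutation p = 0.0571, adjusted p = 0.143). In 3 of the irradiated samples and in 0 Gy replicate 3, miR-27a-3p was at the floor, so that these differences are lower bounds. With no floor, 0 Gy replicate 3 read 2.65, against 1.33 in 7 Gy replicate 2, a wider overlap. In 0 Gy replicate 4, miR-24-3p was at the floor, so that its difference is an upper bound (-1.14 with no floor). On the arrays where both were detected and with no floor, a choice made after seeing the values, the difference averaged 3.50 ± 1.89 at 7 Gy (n = 3) and 0.30 ± 1.90 at 0 Gy (n = 4; exact permutation p = 0.114).

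The paralogs of the 2 clusters showed smaller gaps. The difference miR-23a-3p minus miR-23b-3p averaged 2.47 ± 1.25 at 7 Gy and 2.69 ± 0.95 at 0 Gy (SD, n = 4 each; gap -0.22, exact permutation p = 0.80, adjusted p = 0.80). Read with no floor, it was 4.86, 4.05 and 4.69 in 7 Gy replicates 1, 2 and 4, and 3.96, 3.96, 4.06 and 3.70 in 0 Gy replicates 1 to 4. The controls thus lay within a narrow band, and 7 Gy replicate 2, with labelling in range, lay inside it. The gap on this reading was 0.61 (exact permutation p = 0.0571), the opposite sign to that with the floor. The difference miR-27a-3p minus miR-27b-3p averaged 0.50 ± 1.00 at 7 Gy and 1.21 ± 1.04 at 0 Gy (SD, n = 4 each; gap -0.71, exact permutation p = 0.371, adjusted p = 0.464). A probe may also read the paralog, and how far it did was not tested.

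The red cell difference, miR-451a minus miR-23a-3p, spread widest. It was -3.42, 3.54, -1.31 and -1.49 in 7 Gy replicates 1 to 4, and 5.08, 5.93, 3.13 and 3.32 in 0 Gy replicates 1 to 4. Replicate 2 of the irradiated samples lay among the controls, and the other 3 lay below all of them. The means were -0.67 ± 2.96 at 7 Gy and 4.37 ± 1.36 at 0 Gy (SD, n = 4 each), a gap of -5.03 (exact permutation p = 0.0857, adjusted p = 0.143). Without 7 Gy replicate 2, the irradiated sample that overlaps, the gap was -6.44 (exact permutation p = 0.0286), and without any other sample the exact permutation p was 0.0857 or 0.114. With that replicate as the only irradiated sample it was -0.82. The scaled signal of miR-451a before the floor was 83.5, 14871, 32.9 and 10.6 in 7 Gy replicates 1 to 4, and 67369, 39046, 2762 and 5570.4 in 0 Gy replicates 1 to 4. With miR-451a at the floor in 7 Gy replicates 1, 3 and 4, the differences of these samples are upper bounds. Read with no floor, a choice made after seeing the values, they were -3.68, -2.92 and -4.72. The gap was then -6.31 (exact permutation p = 0.0857). The 3 arrays with low miR-451a were the 3 with labelling below range, and the part of labelling in this gap was not tested.

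**Figure D4:**
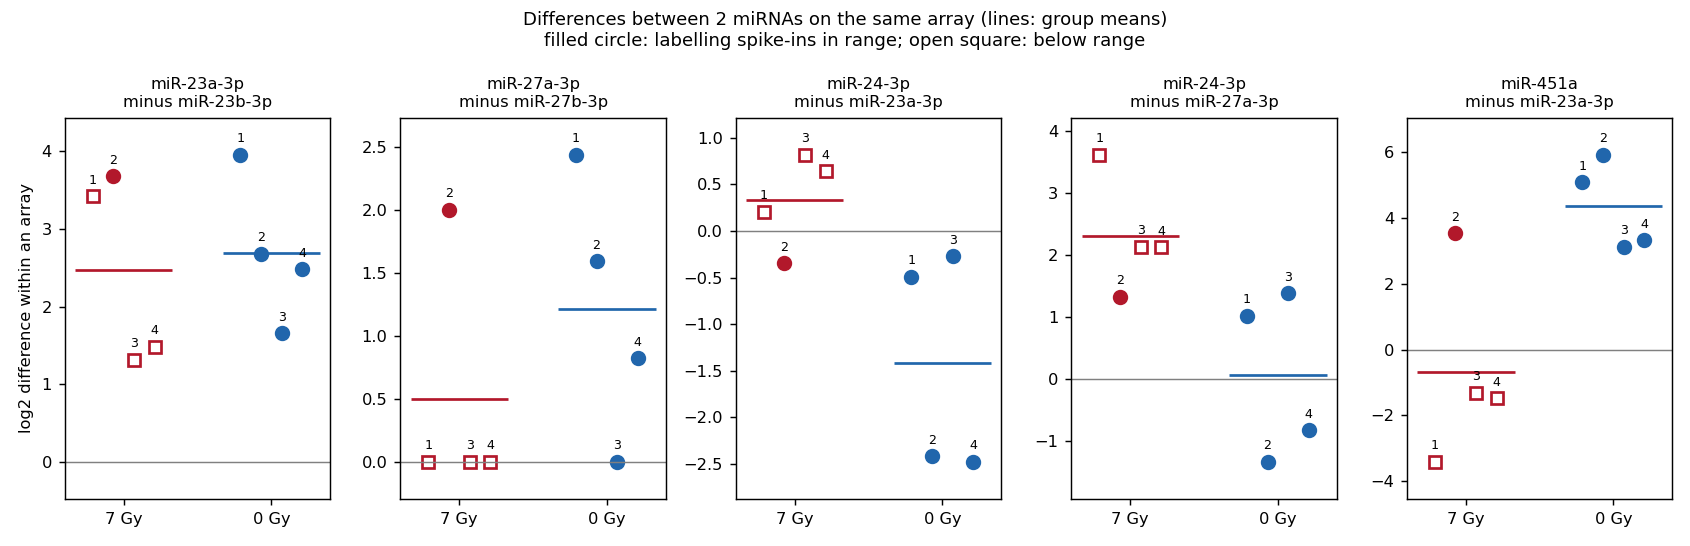
Log2 difference between 2 miRNAs on the same array, with 7 Gy on the left and 0 Gy on the right of each panel, horizontal lines at the dose means and replicate numbers above the points. Filled circles are arrays with labelling spike-ins in range and open squares arrays below range. The doses overlap by a narrow margin for miR-24-3p minus miR-23a-3p and, with the floor, minus miR-27a-3p. For miR-451a minus miR-23a-3p, 7 Gy replicate 2 lies with the controls.

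The other products of the 2 clusters were at or near the limit of detection, and none passed the filter for testing. The arm opposite miR-24-3p from the chr8 locus, miR-24-2-5p, had scaled signals of 59.8, 35.8 and 8.25 in 7 Gy replicates 1, 2 and 4 and was not called detected in replicate 3. It had 22.7, 32.3, 52.3 and 33.9 in 0 Gy replicates 1 to 4. The doses overlapped, and 7 Gy replicate 1 was the highest of the 8 after scaling. Its unscaled signal of 13.8 lay below every control (36.5 to 71.6), so that this rank rests on the scaling. The arm from the chr13 locus, miR-24-1-5p, was detected on 1 array at 7 Gy and on 2 at 0 Gy, with scaled signals of 2.09 to 2.48. The arm opposite miR-23a-3p, miR-23a-5p, was detected on all 8 arrays. Its scaled signals were 3.52 to 11.4 at 7 Gy and 1.55 to 3.73 at 0 Gy, and the doses overlapped. Unscaled, it read 0.81 to 15.1 at 7 Gy and 2.24 to 6.18 at 0 Gy. The arms miR-23b-5p, miR-27a-5p and miR-27b-5p were detected on no array. Of the miR-3074 products, which lie antisense to the mir-24 hairpins, miR-3074-1-3p and miR-3074-2-3p were detected only in 0 Gy replicate 1, and miR-3074-5p on no array.

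The miRNA with the shifted miR-27 seed, miR-128-3p, was detected on all 8 arrays. Its scaled signal before the floor was 26.9, 78.8, 7.28 and 12.9 in 7 Gy replicates 1 to 4, and 347, 124, 58.0 and 54.8 in 0 Gy replicates 1 to 4. All irradiated samples were below the floor, as were 2 of the controls, and 7 Gy replicate 2 lay above those 2. The log2 fold change was -0.53 (SE 0.40, limma adjusted p = 0.422).

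The tested miRNAs whose profile over the 8 arrays was most like the mean profile of the group were miR-19a-3p, miR-192-5p and miR-185-5p, with root mean square differences of 0.27, 0.32 and 0.39 log2 units after centring. Within the group, miR-23a-3p and miR-27a-3p differed by 0.67 on this measure, and miR-24-3p was 1.18 from miR-23a-3p and 1.51 from miR-27a-3p. The cluster neighbours miR-23b-3p and miR-27b-3p differed by 0.000856, a closeness that the floor imposes on 7 of 8 arrays.

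Lists of miRNAs typical of other sources, read beside the group, gave 0 calls with limma, against 4 higher and 4 lower of all 208 tested. The unadjusted limma p lay under 0.05 for 3 of their miRNAs, all lower at 7 Gy. These were miR-222-3p (1 of 3 endothelial miRNAs tested), miR-451a (1 of 5 erythroid) and miR-142a-3p (1 of 5 myeloid). The lymphocyte, hepatocyte and muscle lists had 0. Over all 208 tested miRNAs, this p lay under 0.05 for 46 in the higher and 16 in the lower direction. Of the 4 endothelial miRNAs, 3 were tested, all with fold changes below 0 and a median log2 fold change of -0.32. Their summed scaled signal was 124 to 578 at 7 Gy and 776 to 932 at 0 Gy and did not overlap. Of the 4, miR-222-3p alone did not overlap (log2 fold change -1.83, limma adjusted p = 0.0522), and the highest miR-126a-3p signal of the 8 arrays was in 7 Gy replicate 2. Over all 208 tested miRNAs, 25 (12%) did not overlap, among them miR-222-3p and, from the myeloid list, miR-142a-3p. Of the 6 erythroid miRNAs, 5 were tested, all below 0, with a median of -1.34 and sums of 7323 to 25822 at 7 Gy and 16485 to 82115 at 0 Gy. The lymphocyte list (3 of 4 tested) had a median of -0.32 and the myeloid list (5 of 5 tested) one of -0.89. The muscle list (2 of 3 tested) had a median of -0.65, and miR-122-5p, the hepatocyte marker, a log2 fold change of 0.01. At 7 Gy, miR-221-3p, miR-150-5p, miR-181a-5p, miR-142a-3p, miR-142a-5p, miR-146a-5p and miR-1a-3p were at the floor on all 4 arrays. Their fold changes could only be negative, and the lymphocyte median is the value of miR-181a-5p. The signs and medians of these lists are thus descriptions only. The group itself summed to 689 to 2860.5 at 7 Gy and 665 to 4351 at 0 Gy. Of the markers, miR-144-5p and miR-155-5p were detected on no array at 7 Gy, and on 2 and 3 of 4 at 0 Gy. The miR-451a signal was at the floor on 3 of 4 arrays at 7 Gy. From the same lists, miR-486a-5p and miR-342-3p were detected on all 8 arrays and lay above the floor on each, with overlapping doses. The part of these sources in the values of the group was not tested.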

How the data were processed

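Serum RNA from mice given 7 Gy (4 samples) and from non-irradiated mice (4 samples) was hybridised to 1-colour Agilent mouse miRNA arrays. The deposited intensity values are Agilent Feature Extraction output (version 11.5 in the submitters' processing notes): background-subtracted signals summed by the authors' software over the spots of a miRNA, 0.1 where it was not detected, with no normalization between arrays. No mouse spot was saturated. Control spots were left out. The interval of 72 h is from the study's text, not from the labels.

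Each array was scaled to the geometric mean of the 90th percentiles over 1881 miRNAs, values under 100 were set to 100, as the lower limit in the study's methods was read, and log2 was taken. A miRNA was tested if detected on at least 3 of 8 arrays and not at the floor on all 8 (208 miRNAs), using limma 3.58.1 (lmFit, eBayes; R 4.3.3) and Benjamini-Hochberg adjustment. The fit was run on simulated normal values with planted changes. These had no floor and no difference in array quality between groups, so that the run does not cover either. Single values and within-array differences were compared by two-sided exact permutation, over 70 arrangements with 4 samples per dose. Comparisons of 3 against 4 samples had 35 arrangements. The smallest possible exact permutation p was 0.0286 in both cases. Probe values are mean spot intensities, scaled by the 90th percentile of the summed spot signals, with a floor of 100 over the 30 spots of a miRNA. Figures were drawn with matplotlib 3.10.9. The number of arrays limits the precision.

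The miRNAs named are the 5 products, the other arms and antisense products of both clusters, those sharing a seed with them and miR-128-3p, the 3 most alike in profile, and the marker lists. The 8 miRNAs called over the whole array and the 4 sharing the seed of miR-24-3p are named beside their counts. The products and lists were chosen with earlier results of these data known. Alternatives varied scaling, floor, measure, filter, variance model, covariates and samples. Scaled signals of the arm and antisense products and all values said to be before the floor are descriptions only.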

Additional observations from a re-analysis of the deposited data

Results flagged for a closer look

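In 4 of the 19 sets of 4 samples examined, 1 sample stood apart from the other 3 by more than the 95% limit of Dixon's test, which chance passes in about 1 of 20 sets. In each, the other 3 were equal because they lay at the floor of 100 (6.64 on the log2 scale). These were miR-27a-3p at 7 Gy, where replicate 2 read 8.65, miR-27a-3p minus miR-27b-3p at 7 Gy, where replicate 2 read 2.004 and the others 0, miR-23b-3p at 0 Gy, where replicate 1 read 7.00, and miR-27b-3p at 0 Gy, where replicate 1 read 7.00. Before the floor, the other samples of these sets differed among themselves, as the values above show.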

How the results depend on the processing

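Of the group's miRNAs that passed the filter, none was called lower in the 31 alternatives with a test, and none higher except miR-24-3p with array weights (1 call, log2 fold change 2.43, adjusted p = 0.0258). All 5 were tested except with a floor of 200 and without 0 Gy replicate 1 (3 each) and with detection required on all 8 arrays (2). The fold change of miR-24-3p was above 0 in 34 of 34 alternatives. That of miR-23a-3p turned positive with the 75th percentile over all miRNAs (0.88), scaling to the labelling spike-ins (1.450), array weights (0.13) and the labelling signal as a covariate (1.31), and ranged from -0.71 to 0.20 when 1 replicate was left out. It turned for miR-23b-3p with the 75th percentile (0.17) and the labelling spike-ins (0.0297), for miR-27a-3p with the labelling spike-ins (0.10) and the labelling covariate (0.83), and for miR-27b-3p with the labelling spike-ins (0.0886).

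The p-values of this paragraph are not adjusted over the 5 differences. The gap in miR-24-3p minus miR-27a-3p reached an exact permutation p of 0.0286 with the 75th (1.86) and the 90th (1.96) percentile of miRNAs detected on all arrays, quantile normalization (2.34), hybridization spike-ins (1.83) and a floor of 200 (1.35), and ranged from 1.77 to 2.68 without 1 replicate (p = 0.0286 to 0.143). With no scaling it was 1.33 (exact permutation p = 0.143). That in miR-24-3p minus miR-23a-3p reached it with quantile normalization (1.95) and with normexp background correction (1.61), and ranged from 1.39 to 2.13 without 1 replicate (exact permutation p = 0.0286 to 0.143). The gap in miR-23a-3p minus miR-23b-3p turned positive with the 75th percentile over all miRNAs (0.71), labelling spike-ins (1.42), a floor of 25 (0.11), normexp (0.16), a floor of 1 (1.47) and no floor (0.61), the last 2 chosen after seeing the data. It was 0.98 on arrays with labelling in range and ranged from -0.62 to 0.20 without 1 replicate. That in miR-27a-3p minus miR-27b-3p turned with the labelling spike-ins (0.00716) and a floor of 1 (0.15), and was 0.79 on arrays in range. That in miR-451a minus miR-23a-3p was -0.82 on arrays in range and ranged from -6.44 to -4.12 without 1 replicate. The cause of these turns was not tested.

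The counts over all tested miRNAs, 4 higher and 4 lower, moved more. They were 7 and 11 with the 75th percentile and 6 and 1 with the 90th percentile, both of miRNAs detected on all arrays. Quantile normalization gave 2 and 2. They were 0 and 0 with the 75th percentile over all miRNAs, with no scaling, with either kind of spike-in, with a floor of 200 and with the labelling covariate. A floor of 50 and a floor of 1 gave 2 higher, and the trended and robust fit gave 0 higher. Normexp gave 13 lower. Array weights gave 61 and 14, the methods' t-test with a 1.5-fold limit 34 and 14, the same test after Benjamini-Hochberg adjustment 1 and 1, and slide row as a block 18 and 8. Without 1 replicate they ranged from 0 to 56 higher and from 1 to 14 lower, with the highest counts (56 and 14) without 7 Gy replicate 2.

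The replicate numbers did not pair the samples: same-numbered samples correlated at -0.34, 0.43, 0.55 and 0.42 in their deviations from the dose means, and not every sample correlated best with its own number. With the replicate number as a block, the calls were 0 higher and 0 lower over all miRNAs, and miR-24-3p had an adjusted p of 0.205 (log2 fold change 1.44, which a balanced block leaves as it is). Array signal limits miR-23b-3p and miR-27b-3p most, since 7 of 8 arrays lay at the floor.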
